A study of Mus musculus with 2 samples.

Results

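The members described here are 46 mouse genes of the interferon system: 42 interferon-stimulated genes and the 4 subunits of the type I and type II interferon receptors. They were chosen by gene symbol and no level was used as a rule, but earlier results of these data were known. All 46 had a row in the deposited gene tables, which held 69691 rows, 43346 of them Ensembl genes and 21474 of these annotated as protein-coding. Total RNA-seq gave their levels in 2 libraries of primary cells labelled megakaryocyte progenitor (CFU-Meg, a progenitor of the platelet-forming megakaryocyte) from male adult C57BL/6J mice of 5 to 6 weeks. No treatment, mutation or second group was in the labels, so levels, isoforms and the agreement of the libraries are described and no condition is compared. Each library started from 1 ng of RNA, and both biosamples carry 1 donor identifier. The SD over the libraries (n = 2) may therefore not measure variation between animals.

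The libraries held 82746658 expected counts (estimated reads, shared reads being divided among genes) in replicate 1 and 75652762 in replicate 2. At 1 TPM (a relative level per transcript length, scaled to a fixed total), a gene of 1000 effective bases had 62.1 reads in replicate 1 and 57.6 in replicate 2. The cell label was set against marker genes. The 9 megakaryocyte markers summed to 10.3 and 5.87 TPM in replicates 1 and 2, only 2 of them (Itga2b and Vwf) reached 1 TPM in both libraries, and Gp6 was at 0 in both. The 5 granulocyte markers (Mpo, Elane, Prtn3, Ctsg and Cebpe) summed to 13106 and 11668 TPM and the 5 monocyte markers to 2918 and 3328 TPM, with all 10 above 1 TPM. The marker levels went against the label, so the samples are called the libraries labelled CFU-Meg. In bulk RNA, fewer cells of a type and less RNA per cell cannot be told apart, and which cells carried the RNA of the members was not tested.

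Interferons are secreted proteins that warn cells of infection. Type I interferons bind Ifnar1 and Ifnar2, and interferon gamma binds Ifngr1 and Ifngr2. Janus kinases then activate transcription factors that bind the interferon-stimulated response element (ISRE) or the gamma-activated site (GAS) in promoters. The induced genes sense viral nucleic acid, block entry and translation, cut RNA or restrain the signal. Many of them also have a basal level without infection, and interferon is known to act on blood stem and progenitor cells in the marrow.

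The ISRE shares its name with the family, so its letters were looked up in the RefSeq promoters (build GRCm38.p6, 250 bases before to 50 after each transcript start). Of the 46 members, 35 matched 43 such promoters by symbol; the other 11 were Dhx58, Zbp1, Oas2, Mx1, Mx2, Usp18, Parp9, Parp14, Ifi27, Rtp4 and Tor3a. The letters GAAA, any 2 bases and GAAA again, read on both strands with overlaps allowed, stood in a promoter of 15 of these 35 members (42.9%), against 3.44% of all 32851 promoters and 3.99% of 27025 genes. The longer form, with a C after the last A, stood in 12 of 35 members (34.3%), against 0.944% of genes and 0.819% of promoters. The GAS letters TTCNNNGAA stood in 12 of 35 members (34.3%), against 9.55% of genes and 8.3% of promoters. A match is a run of letters and not a measured binding site. Stretches of 30 bases around the match are shown for members at both ends of the range of levels, 5′ to 3′ on the strand of the gene, with the matching letters in capitals and positions counted from the transcript start.
Isg15, chr4:156200871-156200900, minus strand, 3 overlapping copies: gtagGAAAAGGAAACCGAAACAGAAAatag
Ifit1, chr19:34640775-34640804, plus strand: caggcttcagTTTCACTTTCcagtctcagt
Ifit1, chr19:34640794-34640823, plus strand: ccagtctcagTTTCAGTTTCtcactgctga
Ifit3, chr19:34583363-34583392, plus strand: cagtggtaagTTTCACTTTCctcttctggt
Ifit3, chr19:34583397-34583426, plus strand: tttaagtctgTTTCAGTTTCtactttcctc
Rsad2, chr12:26456553-26456582, minus strand: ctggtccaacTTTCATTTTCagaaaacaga
Oas1a, chr5:120907523-120907552, minus strand, 2 overlapping copies: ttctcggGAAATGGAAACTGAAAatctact
Gbp3, chr3:142559992-142560021, plus strand, 2 overlapping copies: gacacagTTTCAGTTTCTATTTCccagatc
Ifitm3, chr7:141010706-141010735, minus strand: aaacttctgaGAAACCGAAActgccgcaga
Ifitm2, chr7:140955988-140956017, minus strand: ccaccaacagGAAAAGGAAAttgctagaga

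Matches lay on either strand of the gene: those of Isg15 span bases -78 to -57 before its start, and that of Ifitm2 spans -46 to -37. The printed match of Ifitm3 spans bases 20 to 29 after its start. The letters stood both before Ifit3, the lowest member, and before Ifitm2, the highest. The 15 members with the ISRE letters had a median of 4.46 TPM (0.41 to 265 TPM), and 10 of them reached 1 TPM in both libraries. The 20 members whose promoters lacked the letters had a median of 11.4 TPM (1.14 to 168 TPM), and 17 of them reached 1 TPM in both. None of the 4 receptor genes had the ISRE letters in this window, while Ifnar1 and Ifnar2 had the GAS letters. The 250 bases before the starts of Isg15 and of Ifngr1, the highest receptor, show both kinds side by side, with the ISRE letters in capitals.
Isg15, chr4:156200819-156201068, minus strand: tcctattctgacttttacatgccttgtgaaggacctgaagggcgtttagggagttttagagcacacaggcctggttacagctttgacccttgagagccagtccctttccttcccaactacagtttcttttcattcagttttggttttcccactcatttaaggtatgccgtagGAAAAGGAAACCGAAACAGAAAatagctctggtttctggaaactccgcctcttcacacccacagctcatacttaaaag
Ifngr1, chr10:19591699-19591948, plus strand: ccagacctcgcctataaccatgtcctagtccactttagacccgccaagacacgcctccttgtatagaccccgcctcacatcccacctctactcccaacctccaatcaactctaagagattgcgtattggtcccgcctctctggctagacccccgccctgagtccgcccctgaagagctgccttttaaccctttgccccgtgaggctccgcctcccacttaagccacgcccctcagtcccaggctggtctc
The Isg15 stretch was 44.8% G and C with 4 CpG, and the Ifngr1 stretch was 59.2% G and C with 11 CpG.

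All 46 members had reads in both libraries, from 8 to 21023 expected counts. At a threshold of 1 TPM, 33 of 46 (71.7%) were at or above it in both libraries, against 46.2% of all protein-coding genes. Another 7 were under 1 TPM in both, and 6 lay on different sides of it. At 10 TPM the count was 16 of 46 (34.8%), against 24.1% of protein-coding genes. Of 24 listed near copies of members, which are outside the set, 4 (16.7%) reached 1 TPM in both libraries. The shares thus describe the listed members and not their whole gene families. The median member had 6.82 TPM in replicate 1 and 6.17 TPM in replicate 2. For comparison, the median of all protein-coding genes was 0.62 and 0.54 TPM, and that of the 9924 coding genes at 1 TPM or more in both libraries was 11.6 TPM as a mean. A few members held most of the RNA: Ifitm2, Ifngr1 and Ifitm3 made up 50.8% of the summed TPM of the members, and the 10 highest made up 80.0%. The 7 members under 1 TPM in both libraries were Isg15, Ifit1, Ifit3, Mx1, Oas3, Rsad2 and Mx2. Several of these are textbook markers of an interferon response. Other genes of the same families were higher, such as Ifit2 (mean 3.25 TPM) and Oas1a (mean 4.465 TPM). The set also depends on the TPM scale: after the rescaling given at the end, 41 members reached 1 TPM in both libraries.

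**Figure D1:**
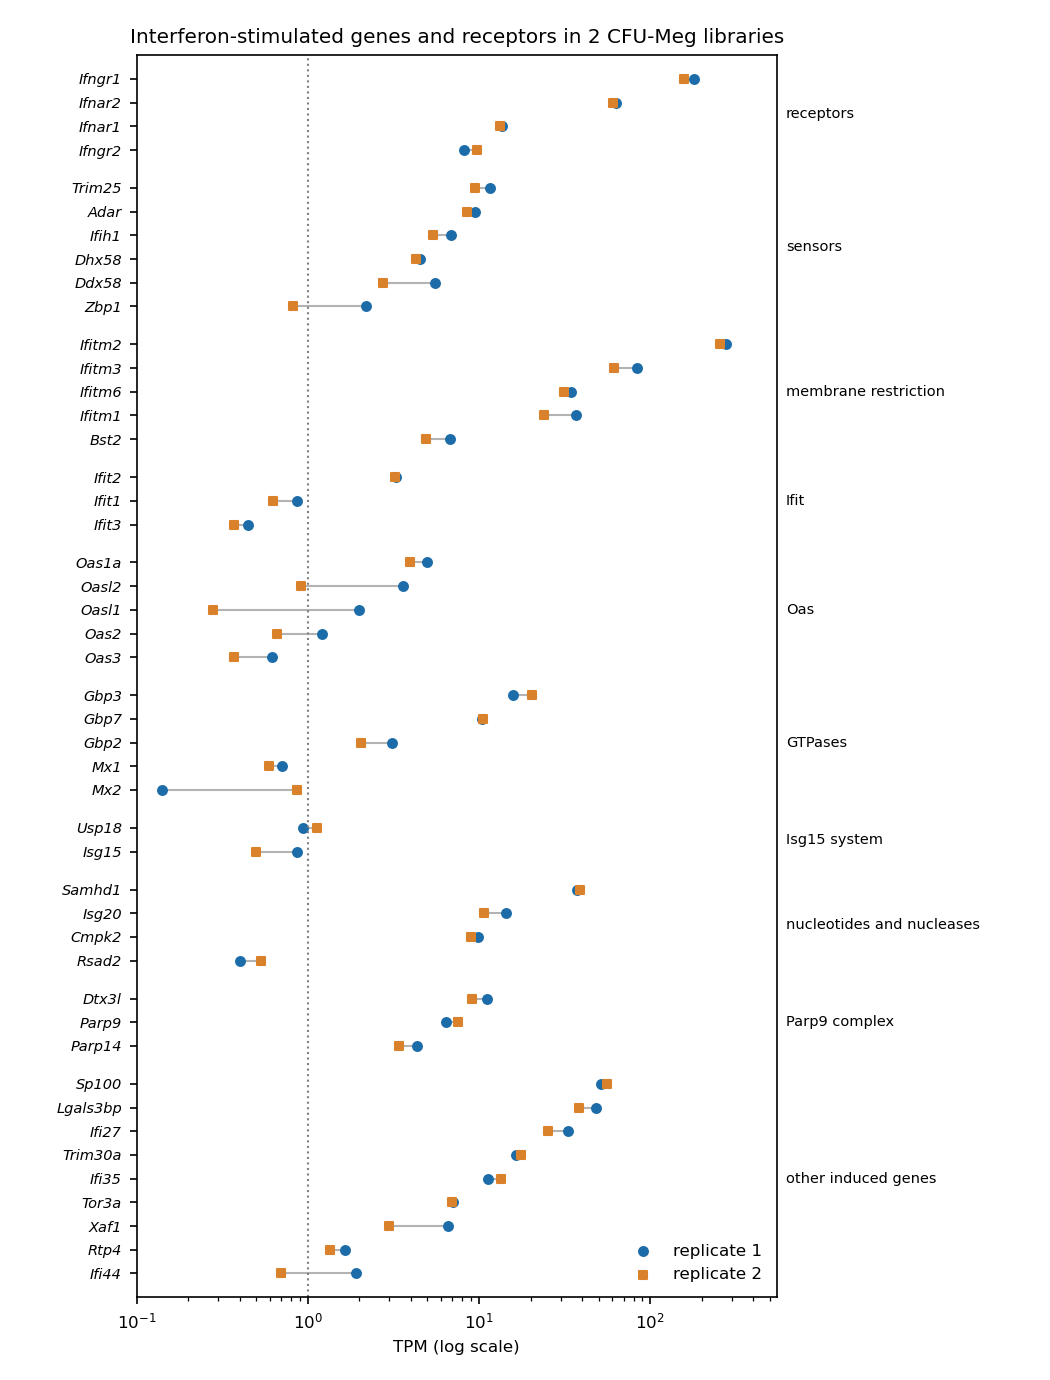
TPM (log scale) of each of the 46 members in replicate 1 (circles) and replicate 2 (squares), arranged by role and by mean level, with a dotted line at 1 TPM. The receptors and the membrane restriction group stand to the right, from 4.89 TPM upwards, while most of the Ifit, Oas and Isg15 genes stand near or left of the line.

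The 4 receptor genes were all above 8 TPM, with a group median of 37.7 TPM. Ifngr1, the ligand-binding chain for interferon gamma (ENSMUSG00000020009.8, mm10 chromosome 10, 19591949 to 19610229, plus strand), had 179.62 TPM in replicate 1 and 156.65 TPM in replicate 2. Its mean of 168 ± 16.2 TPM (SD, n = 2) was the second highest of all members. Ifngr2, its signalling partner, had 8.13 and 9.71 TPM. The chains of the type II receptor thus stood far apart in both libraries. Ifnar2, the high-affinity chain for type I interferons (ENSMUSG00000022971.14, chromosome 16, 91372783 to 91405589, plus strand), had 63.25 and 60.56 TPM in replicates 1 and 2. Ifnar1, the other chain of that receptor, had 13.67 and 13.25 TPM. The order Ifngr1, Ifnar2, Ifnar1, Ifngr2 was the same in both libraries, with no overlap between any of the 4 genes.

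The level of Ifnar2 was split over transcripts with different coding lengths. In mice this gene is known to make a membrane receptor and a shorter secreted form by alternative splicing. Transcript Ifnar2-203, with 248 codons, took 69.57% and 70.58% of the TPM of the gene in replicates 1 and 2. Transcript Ifnar2-201, with 513 codons, took 24.13% and 26.39%. In reads the order differed, because TPM divides by length: Ifnar2-201 had 2759 and 2682 expected counts, against 2626 and 2374 for the shorter Ifnar2-203. Which protein each transcript makes was not examined. Ifnar1 was split over Ifnar1-202 (50.54% and 47.9%) and Ifnar1-201 (40.48% and 38.14%), which share a coding length of 590 codons. Ifngr1 came almost wholly from Ifngr1-201 (93.74% and 95.41%).

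Of the 6 genes for sensors of foreign nucleic acid and their regulators, 5 were at 1 TPM or more in both libraries and none reached 10 TPM in both. Trim25, a ubiquitin ligase that acts on the RNA sensor Ddx58, had 11.58 TPM in replicate 1 and 9.48 TPM in replicate 2. Adar, which edits adenosine to inosine in paired RNA and so keeps cellular RNA from being sensed, had 9.53 and 8.47 TPM. Ifih1, a sensor of long paired RNA, had 6.9 and 5.39 TPM. These 3 agreed between libraries more closely than Zbp1, a sensor of left-handed nucleic acid that can start necroptosis, which had 2.18 and 0.82 TPM. Ddx58, the sensor of viral RNA ends, and Dhx58, a relative that tunes both RNA sensors, had means of 4.14 and 4.42 TPM.

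Adar is known to make a longer, interferon-inducible protein and a shorter, constitutive one. Adar-203, with 1178 codons, took 37.05% and 46.42% of the TPM of the gene in replicates 1 and 2. Adar-202, with 930 codons, took 31.98% and 35.91%. A short retained-intron transcript, Adar-208, took 17.05% and 13.2% of TPM, but 2.26% and 1.54% of the reads. The long and the short coding form were therefore of similar level in both libraries. Their credibility bounds in replicate 1 were 2.38 to 4.42 TPM for Adar-203 and 2.05 to 4.08 TPM for Adar-202. In replicate 2 they were 2.54 to 4.65 TPM and 2.21 to 4.30 TPM. The bounds overlapped in each library, so the order of the 2 forms was not resolved. Adar shares 1365 exon bases with Chrnb2 on the other strand, which had 57 and 106 reads, and strand use in the counting was not given in the sources used here.

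The membrane restriction group held the highest member and had a median of 33.0 TPM. Ifitm proteins sit in cell membranes and hinder the fusion of enveloped viruses. Ifitm2 (ENSMUSG00000060591.8, chromosome 7, 140954837 to 140955987, minus strand) had 276.58 TPM in replicate 1 and 253.85 TPM in replicate 2, or 265 ± 16.1 TPM (SD, n = 2). Ifitm3 had 83.27 and 61.43 TPM, and Ifitm6 had 34.61 and 31.45 TPM. The order Ifitm2, Ifitm3, then Ifitm6 and Ifitm1 was seen in the means, with Ifitm1 at 30.5 ± 9.18 TPM overlapping Ifitm6. Bst2, which tethers budding virions to the cell surface, had a mean of 5.82 TPM, and all 5 genes of the group had more TPM in replicate 1. The near copy Ifitm7 was listed at 3.74 and 2.2 TPM, and the expected counts of Ifitm2 were not whole in either library, so some of its reads were divided with other genes. Ifitm1 reads were split between Ifitm1-202 (64.76% and 88.35% of TPM) and Ifitm1-201 (35.24% and 11.65%), which share a coding length of 106 codons.

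The Ifit genes, whose proteins bind viral RNA ends and block its translation, were low apart from Ifit2. Ifit2 had 3.28 TPM in replicate 1 and 3.22 TPM in replicate 2. Ifit1 had 0.86 and 0.63 TPM, from 135 and 92 reads. Ifit3 had 0.45 and 0.37 TPM, the lowest mean of all members, and its copy Ifit3b had 0 reads in both libraries. The lower Ifit pair therefore differed from Ifit2 by more than the spread between libraries.

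Oas enzymes make an oligoadenylate that switches on RNase L. Of the 5 Oas and Oas-like genes, only Oas1a was above 1 TPM in both libraries, with 4.95 TPM in replicate 1 and 3.98 TPM in replicate 2. Oasl2 had 3.62 and 0.91 TPM, and Oasl1, which in mice represses the translation of Irf7, had 2 and 0.28 TPM. Both Oas-like genes straddled the threshold, as did Oas2 (mean 0.93 TPM). Oas3 was under it in both libraries, with a mean of 0.49 TPM. All 5 genes of the group had more TPM in replicate 1. Oas1a had fractional counts, and its near copy Oas1g held 51.4 and 21.8 reads, so its reads may include those of the copies.

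The interferon-induced GTPases fell into a higher and a lower set. Gbp proteins coat and break open vacuoles that hold pathogens. Gbp3 had 15.84 TPM in replicate 1 and 20.38 TPM in replicate 2, Gbp7 had 10.44 and 10.51 TPM, and Gbp2 had 3.12 and 2.06 TPM. The 3 Gbp genes kept this order in both libraries, and the near copy Gbp2b had 1.54 and 1.7 TPM. Mx proteins trap viral ribonucleoproteins, and the Mx1 allele of most inbred laboratory mice, C57BL/6 included, is known to encode no working protein. Mx1 had a mean of 0.65 TPM, and Mx2 had 0.14 and 0.87 TPM from 8 and 47 reads. Of the Mx2 transcripts, Mx2-202 and Mx2-204 are annotated as polymorphic pseudogene, and whether Mx2 makes a working protein was not examined.

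The Isg15 pair was also low. Isg15 itself, a ubiquitin-like protein that is attached to other proteins, had 0.86 TPM in replicate 1 and 0.5 TPM in replicate 2, from 33 and 18 reads. Usp18, the protease that removes Isg15 and damps signalling at Ifnar2, had 0.94 and 1.14 TPM. Counting intervals of their ratio between libraries both included equality.

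Genes that act on nucleotides and nucleic acid had a median of 11.0 TPM and covered a wide range. Samhd1, which breaks down the deoxynucleotides that viruses need, had 37.38 TPM in replicate 1 and 38.76 TPM in replicate 2. Isg20, an exonuclease, had 14.4 and 10.66 TPM, and Cmpk2, a mitochondrial nucleotide kinase, had 9.82 and 9 TPM. Rsad2, which turns the cytidine nucleotide made by Cmpk2 into a chain terminator, had a mean of only 0.47 TPM. Of the Samhd1 TPM, 45.5% and 51.22% came from Samhd1-201 (658 codons) and 22.8% and 19.43% from Samhd1-206 (630 codons). Another 24.68% and 19.81% came from a short retained-intron transcript, Samhd1-210, which held 5.57% and 4.25% of the reads.

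The ADP-ribosylation genes were all above 3 TPM in both libraries. Dtx3l, a ubiquitin ligase that works in a complex with Parp9, had 11.17 TPM in replicate 1 and 9.09 TPM in replicate 2. Parp9 had 6.45 and 7.56 TPM, and Parp14, which adds ADP-ribose to proteins, had 4.32 and 3.4 TPM. Dtx3l and Parp9 lie head to head on opposite strands with 458 shared exon bases, and both had fractional counts, so reads from that stretch cannot be assigned to either gene with certainty.

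The 9 other induced genes had a median of 12.4 TPM, and 8 of them were at 1 TPM or more in both libraries. Sp100, a nuclear body protein, had 51.9 TPM in replicate 1 and 56.26 TPM in replicate 2. Lgals3bp, a secreted galectin-binding glycoprotein, had 48.4 and 38.26 TPM. Ifi27, a small mitochondrial membrane protein, had 32.95 and 25.45 TPM. The means of 5 further genes ran from 17 to 1.49 TPM: Trim30a, a negative regulator of NF-κB signalling in mice, Ifi35, Tor3a, an ATPase of the endoplasmic reticulum, Xaf1, a partner of the apoptosis inhibitor Xiap, and Rtp4, a chaperone of membrane receptors. Trim30a shares reads with Trim30d, which was listed at 5.69 and 4.78 TPM. Ifi44 was the gene of this group that straddled the threshold, with 1.92 and 0.7 TPM.

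Several members lie near each other in the genome. Of the 46 genes, 25 stood in 9 clusters of members less than 500000 bases apart, the largest gap being 118594 bases. Neighbours are counted among members only. Other genes lie between some of them, such as Gbp2b between Gbp3 and Gbp2 and Oas1g between Oas3 and Oas1a. In 5 of the 16 neighbouring pairs the higher gene had 5 or more times the mean TPM of the lower one (31.2%, against 52.0% of the other 1019 pairs of members). Rsad2 and Cmpk2, 12751 bases apart on opposite strands of chromosome 12, differed by 20.2 times, with Cmpk2 the higher. Oas1a had 9.02 times the TPM of Oas3, and Ifitm2 had 8.70 times that of Ifitm1, 11233 bases away. Ifit2 had 7.93 times the TPM of Ifit3, 7111 bases away on chromosome 19, and Gbp3 had 6.99 times that of Gbp2. At the receptor cluster of chromosome 16, Ifnar2 had 4.6 times the TPM of Ifnar1, and Ifnar1 had 1.51 times that of Ifngr2. Most of the Ifnar2 level was the 248-codon Ifnar2-203. The 513-codon Ifnar2-201 alone had 15.26 and 15.98 TPM in replicates 1 and 2, against 13.67 and 13.25 TPM for Ifnar1. Levels of neighbours were closest for Mx1 and Mx2, at 1.29 times.

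The libraries were then set against each other by the log2 ratio of reads, replicate 1 over replicate 2, after TMM scaling, which removes differences in depth and composition. The ratio describes 1 library on each side, so its exact binomial interval at 95% covers counting error and not variation between libraries. It treats reads as independent. PCR copies are not independent molecules, so it may be too narrow even for counting error. Of the members, 4 (8.70%) were at least 2-fold higher in replicate 1, against 11.6% of 16833 genes, and 1 (2.17%) was at least 2-fold higher in replicate 2, against 7.35%. These shares were below those of all genes, which include genes under the level of the lowest member. Against genes of like level, given below, the share for replicate 1 was higher among members under 5 TPM. The share for replicate 2 was lower there. The calls were also few. All 5 were low members: Oasl1 (105 reads in replicate 1 and 32 in replicate 2, log2 ratio 1.54, interval 0.98 to 2.18), Oasl2 (369 and 119 reads, 1.47, 1.18 to 1.79), Ifi44 (328 and 110 reads, 1.42, 1.11 to 1.75), Zbp1 (112 and 38 reads, 1.39, 0.86 to 1.98) and Mx2 (8 and 47 reads, -2.64, -4.00 to -1.61). Xaf1 (408 and 188 reads) stood just inside 2-fold with a log2 ratio of 0.96, and Ddx58 (859 and 423 reads) followed with 0.87.

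**Figure D2:**
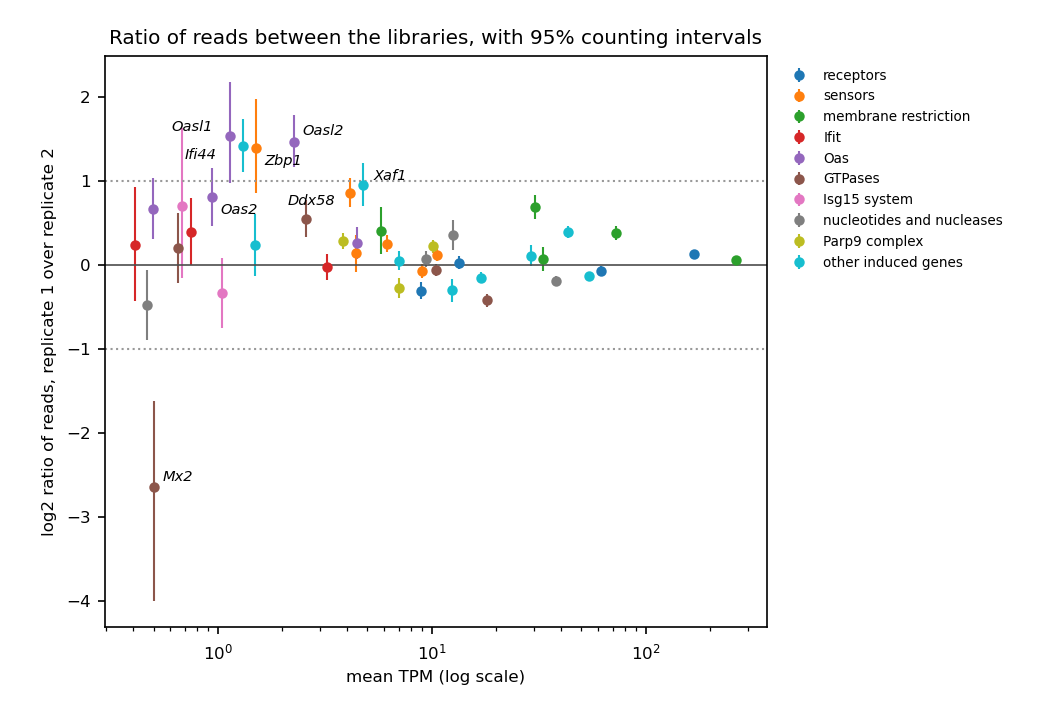
Log2 ratio of reads, replicate 1 over replicate 2, against mean TPM (log scale) for each of the 46 members, with the 95% counting interval as a bar, colours by role and dotted lines at 2-fold. Members of 5 TPM or more lie inside 2-fold, and the 5 outside it all have a mean under 5 TPM.

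More members leaned towards replicate 1 than towards replicate 2. The counting interval lay above 0 for 22 members (47.8%, against 32.4% of all genes) and below 0 for 10 (21.7%, against 31.1%), and it included 0 for 14. The median log2 ratio of the members was 0.17, against 0.00 over all genes. The lean was larger among the 21 members with a mean under 5 TPM, where 12 intervals lay above 0 (57.1%, against 35.2% of genes in the same range of levels) and 2 below (9.52%, against 25.0%). In that lower set 4 members were at least 2-fold higher in replicate 1 (19.0%, against 12.4%) and 1 in replicate 2 (4.76%, against 7.27%). Among the 25 members of 5 TPM or more, none differed by 2-fold in either direction, against 0.501% of such genes for replicate 1 and 0.663% for replicate 2. In that higher set 10 intervals lay above 0 (40.0%, against 28.9%) and 8 below (32.0%, against 38.9%). Marker levels also differed between the libraries: erythroid markers summed to 528 and 254 TPM in replicates 1 and 2, megakaryocyte markers to 10.3 and 5.87 TPM, and monocyte markers to 2918 and 3328 TPM. Their part in the ratios of the members was not tested.

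The calls past 2-fold depended on which transcripts were counted. When only reads of transcripts annotated as protein-coding were used, Oasl1 had 49.5 and 32.0 reads with a log2 ratio of 0.47 (interval -0.18 to 1.18), and Oasl2 had 71.6 and 72.1 reads with -0.17 (-0.65 to 0.34). The other 3 calls held, at 1.47 for Zbp1, 1.37 for Ifi44 and -2.82 for Mx2. Ddx58 turned round, with 45.3 and 164 coding reads and a log2 ratio of -2.0 (-2.53 to -1.54), and Mx1 came in at 1.18. For Ddx58 the sign of the difference between the libraries was thus set by the transcripts counted. With coding transcripts alone, the intervals of Ddx58, Ifi27 and Tor3a came to lie on the side of replicate 2. Those of Ifih1, Oasl1 and Oasl2 came to include equality, and those of Dhx58 and Mx1 came to lie on the side of replicate 1. Fewer member intervals thus lay on the side of replicate 1, and more on that of replicate 2. These intervals treat reads assigned to a transcript as counted, and leave out the uncertainty of dividing reads among transcripts. The coding reads of Ddx58 came from Ddx58-209 in replicate 1 and from Ddx58-201 in replicate 2.

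Most members had 1 main transcript type. Of the 46, 11 had a single annotated transcript and 35 had several, and in 30 of those 35 the same transcript led in both libraries. In 5 members (Ddx58, Dhx58, Oas2, Oasl2 and Mx2) under 50% of the TPM came from protein-coding transcripts in both libraries (10.9%, against 9.04% of coding genes with reads in both). Of the 33 members at 1 TPM or more in both, this was so for 2, Ddx58 and Dhx58 (6.06%, against 8.91% of coding genes at that level). By TPM, a non-coding transcript led in both libraries in 4 members, Ddx58, Dhx58, Oas2 and Mx2 (8.70%, against 8.52%). These shares were near those of all coding genes, and these genes were named after their values were seen. The lead within a gene is by TPM, which divides by length. In reads, coding Dhx58-201 held 74.2% and 68.5% in replicates 1 and 2, and coding Mx2-201 held 58.8% and 69.3%. Coding Oas2-202 held 53.0% of the Oas2 reads in replicate 1, and coding Oas2-201 held 55.0% in replicate 2. For Ddx58, Ddx58-205 led in reads too, with 72.1% and 39.7%. In Ddx58 the processed transcript Ddx58-205 took 53.22% of TPM in replicate 1 and 31.06% in replicate 2, while the coding Ddx58-201 took 0% and 27.52%. In Oasl2 the transcript Oasl2-205, annotated for nonsense-mediated decay, took 61.14% and 43.16%, against 9.68% and 45.78% for the coding Oasl2-201. In Oasl1 the processed transcript Oasl1-205 took 65.25% in replicate 1 and 0% in replicate 2, where Oasl1-201 took 100%. By the posterior mean in the same tables, Oasl1-201 took only 31.2% in replicate 2. These splits are estimates from reads that fit several transcripts, and they differed most between the libraries for the genes with few reads.

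**Figure D3:**
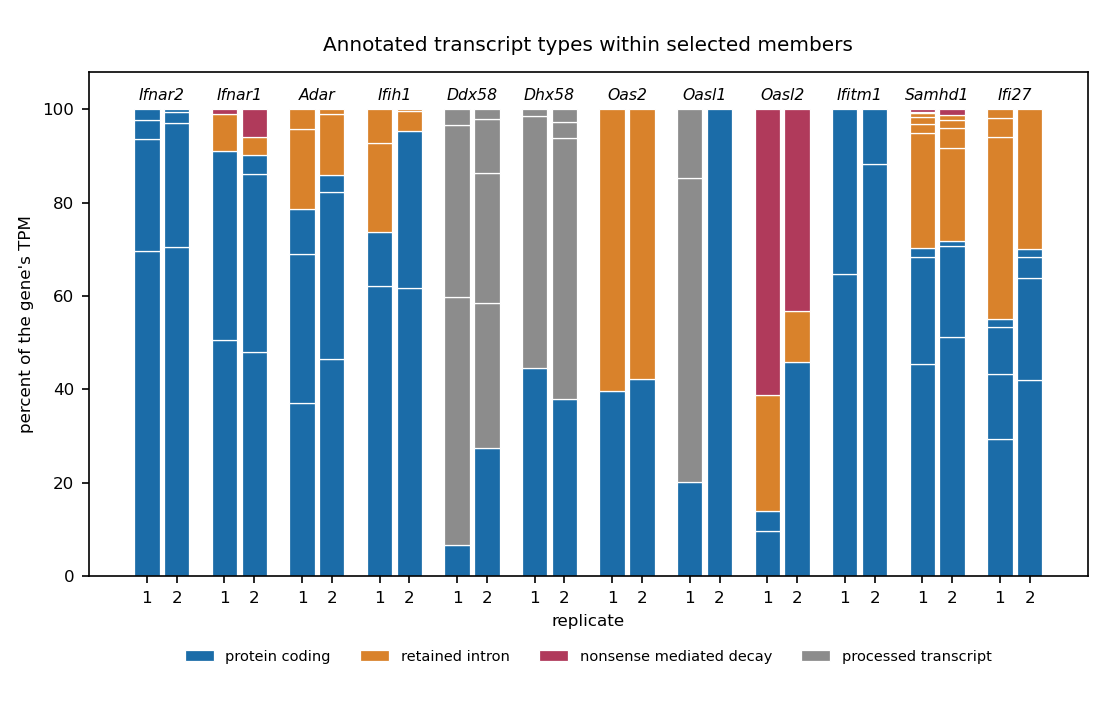
Percent of the TPM of each gene, for 12 members picked after their values were seen, by transcript (white lines) and annotated type (colours), with replicate 1 left and replicate 2 right for each gene. Ifnar2 and Ifitm1 are wholly protein-coding in both libraries, Ddx58 is mostly processed transcript in both, and Oasl1 is 20.09% coding in replicate 1 and 100% in replicate 2.

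Among members of 5 TPM or more, further splits were seen in Ifih1, Ifi27, Lgals3bp and Sp100. Ifih1-201 (1025 codons) took 62.14% and 61.78% of TPM, and Ifih1-202 (976 codons) took 11.56% and 33.55%. Ifi27-205 (260 codons) took 29.32% and 41.91%, while the retained-intron Ifi27-209 took 38.89% and 29.92%. By TPM a different transcript thus led in each library. In reads Ifi27-205 led in both, with 43.3% and 53.6%, against 26.6% and 17.8% for Ifi27-209. Ifi27-201 (215 codons) took 13.94% and 22.01% of TPM. Lgals3bp-201 (577 codons) took 56.88% and 50.44% of TPM. The shorter Lgals3bp-205 (138 codons) took 42.65% and 48.66% of TPM, but 15.8% and 19.4% of the reads. Sp100 was spread over Sp100-202 (591 codons, 29.25% and 25.58% of TPM) and Sp100-204 (302 codons, 29.05% and 29.95%). For 11 members of this level, Ifitm2, Ifitm3, Ifitm6, Bst2, Cmpk2, Dtx3l, Gbp3, Gbp7, Ifngr1, Ifngr2 and Trim30a, 1 coding transcript held over 90% of TPM in both libraries. By the posterior mean this held for 10 of them, and Gbp7-202 took 69.8% and 89.3%. Lower single leads were seen for Trim25-203 (89.85% and 100%), Parp9-201 (86.98% and 86.78%), Ifi35-201 (84.61% and 86.35%), Isg20-203 (84.2% and 75.98%) and Tor3a-201 (77.32% and 91.72%).

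The rest of the pathway was read from fixed lists to place the members between ligand and response. None of 21 interferon genes reached 1 TPM in either library, and 17 were listed at 0 in both, among them all the Ifna genes measured. For those 17, the TPM that 3 reads would give was 0.0525 to 0.114 in replicate 1 and 0.0564 to 0.122 in replicate 2, which limits counting error only. The 4 with reads were Ifnb1 (0 and 0.4 TPM), Ifng (0 and 0.23 TPM), Ifnk (0.17 and 0.34 TPM) and Ifnz (0.13 and 0 TPM). The receptors of the members were thus measured at 8 TPM and more in libraries where their ligands were at or near 0. Plasmacytoid dendritic cells are known as a main source of type I interferon. Of their 4 listed markers, Tcf4 had 9.29 TPM in replicate 1 and 6.87 TPM in replicate 2, and Ccr9 had 0.33 and 0.2 TPM. Siglech and Ly6d were at 0 in replicate 1 and at 0.04 and 0.4 TPM in replicate 2. The 4 markers summed to 9.62 and 7.51 TPM. Of the type III receptor chains, Il10rb had 19.01 and 17.74 TPM and Ifnlr1 had 0.66 and 0.29 TPM.

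All 6 kinase and transcription factor genes listed for the signal were at 1 TPM or more in both libraries. Jak1 led with 28.5 TPM in replicate 1 and 24.99 TPM in replicate 2, and Jak2, another Janus kinase, followed with 17.12 and 17.09 TPM. Of 8 interferon regulatory factors, 6 were at that level in both, led by Irf8, a factor of monocyte development, with 33.54 and 49.3 TPM and Irf3 with 21.68 and 20.37 TPM. Of 12 adaptors and nucleic acid sensors, 10 were, led by Tmem173, the adaptor for cytosolic DNA, with 27.89 and 22 TPM and Aim2, an inflammasome sensor, with 23.3 and 26.05 TPM. Of 8 inhibitors, 6 were, led by the phosphatases Ptpn6 with 49.8 and 48.27 TPM and Ptpn2 with 37.31 and 36.57 TPM.

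**Figure D4:**
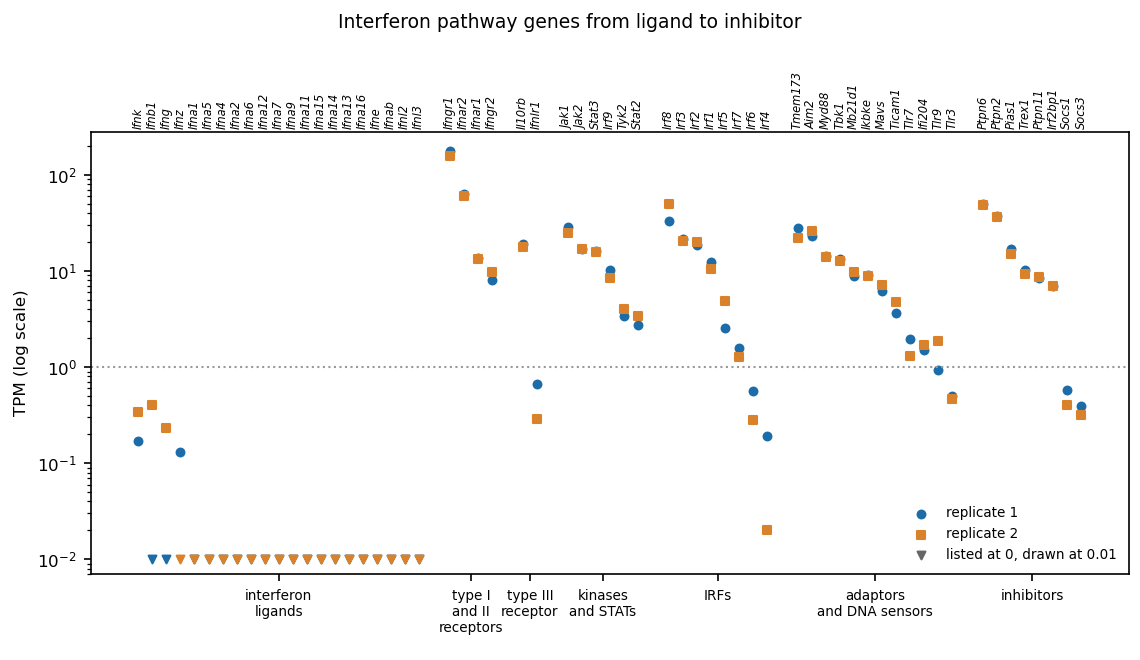
TPM (log scale) in replicate 1 (circles) and replicate 2 (squares) of the interferon genes, the receptors, the kinases and STATs, the regulatory factors, the adaptors and the inhibitors, with triangles at 0.01 for values listed at 0 and a dotted line at 1 TPM. The ligands lie below 1 TPM or at 0, while all 4 receptors of types I and II and all 6 kinases and STATs lie above it.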

How the data were processed

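Per the file lists deposited with the samples, reads were aligned to mm10 and quantified against GENCODE M4, each library on its own; the quantifier, the aligner, their versions, strand use and read layout were not given in the sources used here. The authors deposited, per the file headers, expected counts (not normalized), TPM and FPKM (per effective length, scaled to library size), the percent of a gene's TPM given to each transcript, and score columns with credibility bounds of the posterior mean TPM. TPM shares a fixed total, so ribosomal and mitochondrial RNA lowers every other gene. Mitochondrial genes took 26.8% and 28.8% of expected counts in replicates 1 and 2, and Gm42418 took 23.4% and 20.8%.

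Symbols, positions (GRCm38) and transcript types came from GENCODE M21, which matched 42462 of the 43346 Ensembl rows. The 26345 other rows (tRNA and spike-in identifiers) held 0.00310% and 0.00295% of expected counts and were left out. Of 163 listed symbols, Gbp5, Gbp6 and Gbp10 had no match and were not analysed here, and 1 pathway gene is not reported here. Expected counts were rounded for TMM factors (edgeR 4.0.16, R 4.3.3) and for DESeq2 1.42.0 size factors, tried as an alternative. Log2 ratios used a prior count of 0.5 and genes with 10 or more summed counts, with Clopper-Pearson intervals. The ratio was tested on simulated data with known folds. Per gene group, values are given for the 3 highest members, for members past 2-fold and for receptors, and isoforms at 20% or more of TPM for members of 5 TPM or more. With 1 group there was no test between conditions. The members, lists and tests were chosen with earlier results of these data known.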

Additional observations from a re-analysis of the deposited data

How the results depend on the processing

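Of 131 alternative values computed for counts, medians, shares and the ratios of 8 members, 104 kept their direction and stayed within 1.5 times the reported count, within the spread between the libraries or on the same side of 2-fold. Another 22 moved further, 3 crossed 2-fold in the same direction and 2 changed sign. This tally is not a measure of robustness. Dropping the count filter changed no value, since all members passed it. Medians with 1 library left out were judged by the spread between those same libraries, which they could hardly exceed. FPKM and rescaled TPM mostly shift all members by a near-constant factor. The sign changes were the log2 ratios of Ddx58 (-2.0) and Oasl2 (-0.17) with protein-coding transcripts alone, an alternative chosen after seeing the data. In FPKM, the median member was at 4.97, and the medians were 28.5 for receptors, 3.995 for sensors, 25.0 for membrane restriction, 0.565 for Ifit, 0.65 for the Isg15 pair, 8.29 for nucleotides and nucleases, 5.30 for ADP-ribosylation genes and 9.36 for the other induced genes. With TPM rescaled without Gm42418, spike-in, numeric, mitochondrial and small RNA rows (factors 2.20 and 2.18), the median member was at 14.4 TPM, and the medians were 82.5, 11.6, 72.4, 1.63, 1.88, 24.0, 15.3 and 27.1 TPM in the same order, with 2.51 for Oas and 5.68 for GTPases. When either replicate was left out, the membrane restriction median was 31.4 to 37.0 TPM and the Oas median 0.66 (without replicate 1) to 2.0 TPM (without replicate 2), against 1.14 TPM with both. Protein-coding transcripts alone gave a median member of 5.95 TPM.

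The count of 33 members at 1 TPM or more in both libraries was 41 after that rescaling or at 0.5 TPM, 32 at 2 TPM, and 34 to 38 when only 1 library was read. The 5 members past 2-fold were the same genes under DESeq2 size factors, total counts and no filter. Mx2 dropped out at 100 or more summed counts, Xaf1 came in on the scale of TPM + 0.1, and with coding transcripts alone 3 were higher in replicate 1 and 2 in replicate 2. No paired analysis was possible because the labels give 1 group. Depth limits the 10 members with under 100 reads in a library, whose ratios have wide intervals.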
